A study of Homo sapiens with 4 samples.

Results

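The genes described here are 34 genes of the NF-kB system: the 5 subunits of the transcription factor, 5 inhibitors and IkB-like regulators, 7 intracellular and surface targets, 7 chemokines, 7 other cytokines and growth factors, and 3 secreted acute phase proteins. They were chosen by name, as the rows of both deposited tables whose symbol stood on a list, and made up 34 of 60612 listed genes. The values came from mRNA sequencing of 2 human hepatocellular carcinoma cell lines, carried out to learn which mRNAs differ when CCDC137, an RNA-binding protein of the nucleus, is raised or lowered. Huh-7 cells overexpressed CCDC137 from a lentiviral vector, or carried that vector empty. PLC/PRF/5 cells carried a lentiviral vector with a guide RNA that brings inactive Cas9 fused to the KRAB repressor to CCDC137 (knockdown), or a control vector whose insert the labels do not name. All 4 were lines selected with puromycin after infection, and the labels name no cytokine or other stimulus. There was 1 library per group, so no difference given here has a replicate check, no test was possible and no error can be set on a value. Huh-7 was grown in DMEM and PLC/PRF/5 in MEM with added amino acids, so line, medium and vector cannot be told apart in any comparison between the lines.

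NF-kB is a family of dimeric transcription factors that wait in the cytoplasm, bound by IkB proteins or as unprocessed precursors. In the canonical branch, receptors for TNF, interleukin 1 and microbial products activate the IKK kinase, IkB is degraded, and dimers of RELA with the p50 product of NFKB1 enter the nucleus. In the noncanonical branch, receptors such as CD40 and LTBR stabilise the kinase NIK (gene MAP3K14), and NFKB2 is processed to p52, the partner of RELB. The targets include the pathway's own inhibitors, and in liver cells also chemokines and acute phase proteins.

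The deposited unit was FPKM, which corrects fragment numbers for the length of a gene's transcripts and for library size and thus allows levels to be set beside each other per length. The sum of FPKM over all genes lay between 276444 and 289684 in the 4 libraries, and the number of fragments behind each is unknown. CCDC137 was at 229.0 FPKM in overexpressing Huh-7 cells, against 11.9 FPKM in empty vector cells, and at 0.771 FPKM in PLC/PRF/5 knockdown cells, against 20.5 FPKM in control cells, so the targeted gene followed its labels. Among hepatocyte markers, the apolipoprotein gene APOB was high in all 4 libraries (between 373.1 and 435.8 FPKM), but albumin (ALB) was at 1142 and 1084 FPKM in overexpressing and empty vector Huh-7 cells and only at 1.94 and 2.15 FPKM in knockdown and control PLC/PRF/5 cells. PTPRC, the surface marker of all leukocytes, and the B cell marker MS4A1 and the natural killer cell marker NKG7 were listed at 0 in all 4 libraries. Not all leukocyte markers were absent: LYZ and CD68 were expressed in all 4 libraries and CD14 in Huh-7 cells, as given further on.

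NF-kB dimers bind 10-base kB sites that begin with a run of G and end with a run of C. RefSeq promoter windows (GRCh38.p14, 250 bases before to 50 bases after a start) were found for 28 of the 34 genes. The windows of 19 of these 28 genes (67.9%) held the kB consensus on either strand, against 13.3% of the 27305 symbols in the whole table. The looser pattern of 3 G, 5 bases of any kind and 2 C, which takes in every match of the consensus, was held by 26 of 28 (92.9%), against 61.7% of all symbols. The same 10 letters, GGGAATTTCC, were found on the gene's strand or the opposite one in 8 genes: CXCL1, CXCL2, CXCL3, CXCL5, NFKB1, NFKBIA, NFKBIZ and REL. A match is a description of these letters and not a measured site.

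The stretches of 30 bases around the match are given for the 4 CXC chemokine genes that share it, because these genes lie in a cluster and are later compared, and for the genes of a subunit, of its inhibitor and of IkB-zeta, because these belong to the feedback of the pathway. BIRC3 is shown as the gene with the largest difference on overexpression, and IL6 as a gene with a match that was listed at 0 in all 4 libraries. Each runs 5′ to 3′ on the strand of its gene, with the match in capitals. Where the match lies on the opposite strand (NFKBIA, BIRC3), the capitals show its reverse complement.
CXCL1, chr4:73869304-73869333, plus strand: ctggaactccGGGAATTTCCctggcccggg
CXCL2, chr4:74099254-74099283, minus strand: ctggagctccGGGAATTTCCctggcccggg
CXCL3, chr4:74038749-74038778, minus strand: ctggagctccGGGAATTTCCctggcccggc
CXCL5, chr4:73998749-73998778, minus strand: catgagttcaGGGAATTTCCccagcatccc
NFKB1, chr4:102501300-102501329, plus strand: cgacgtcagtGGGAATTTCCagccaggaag
NFKBIA, chr14:35404811-35404840, minus strand: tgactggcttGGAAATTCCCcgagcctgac
NFKBIZ, chr3:101827757-101827786, plus strand: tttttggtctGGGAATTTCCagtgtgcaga
BIRC3, chr11:102317275-102317304, plus strand: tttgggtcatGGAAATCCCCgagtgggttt
IL6, chr7:22727117-22727146, plus strand: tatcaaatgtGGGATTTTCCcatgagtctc
The match began 79 bases before the start in CXCL1 and CXCL3, 78 in CXCL2 and 91 in CXCL5. The stretches of CXCL1 and CXCL2 were identical at 29 of 30 bases, those of CXCL2 and CXCL3 at 29 and those of CXCL1 and CXCL3 at 28, while CXCL5 was identical to CXCL1 at 18, to CXCL2 at 19 and to CXCL3 at 20. The match lay 49 bases before the start in NFKB1, 81 in NFKBIA, 223 in NFKBIZ and 73 in IL6. BIRC3 had 2 matches, 199 and 135 bases before its start, both on the opposite strand, of which the farther is shown. CXCL8, ICAM1, RELA, SOD2, TNF, TNFAIP2, TRAF1, IL1A and IL1B had no consensus match in their windows, and RELB, NFKBIE, CCL2, CSF1, SAA1 and SAA2 were not matched to a window.

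In every library the 3 most abundant mRNAs of the 34 genes encoded chemokines or the adhesion receptor ICAM1. In PLC/PRF/5 control cells CXCL8, which encodes interleukin 8, a chemoattractant of neutrophils, was at 329.8 FPKM, a level exceeded by only 0.598% of the genes at 1 FPKM or more there. In Huh-7 empty vector cells CXCL5 stood first at 149.0 FPKM, with 1.43% of expressed genes above it. ICAM1 was among the top 2.27% of expressed genes in all 4 libraries. In all, 30 of the 34 genes reached 1 FPKM in at least 1 library, with 28 in each Huh-7 library and 27 in each PLC/PRF/5 library. The exceptions were the classical inducible cytokines IL6, IL1A, IL1B and TNF, which stayed under 1 FPKM throughout, IL6 being listed at 0 in all 4 libraries and TNF reaching at most 0.641 FPKM.

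**Figure D1:**
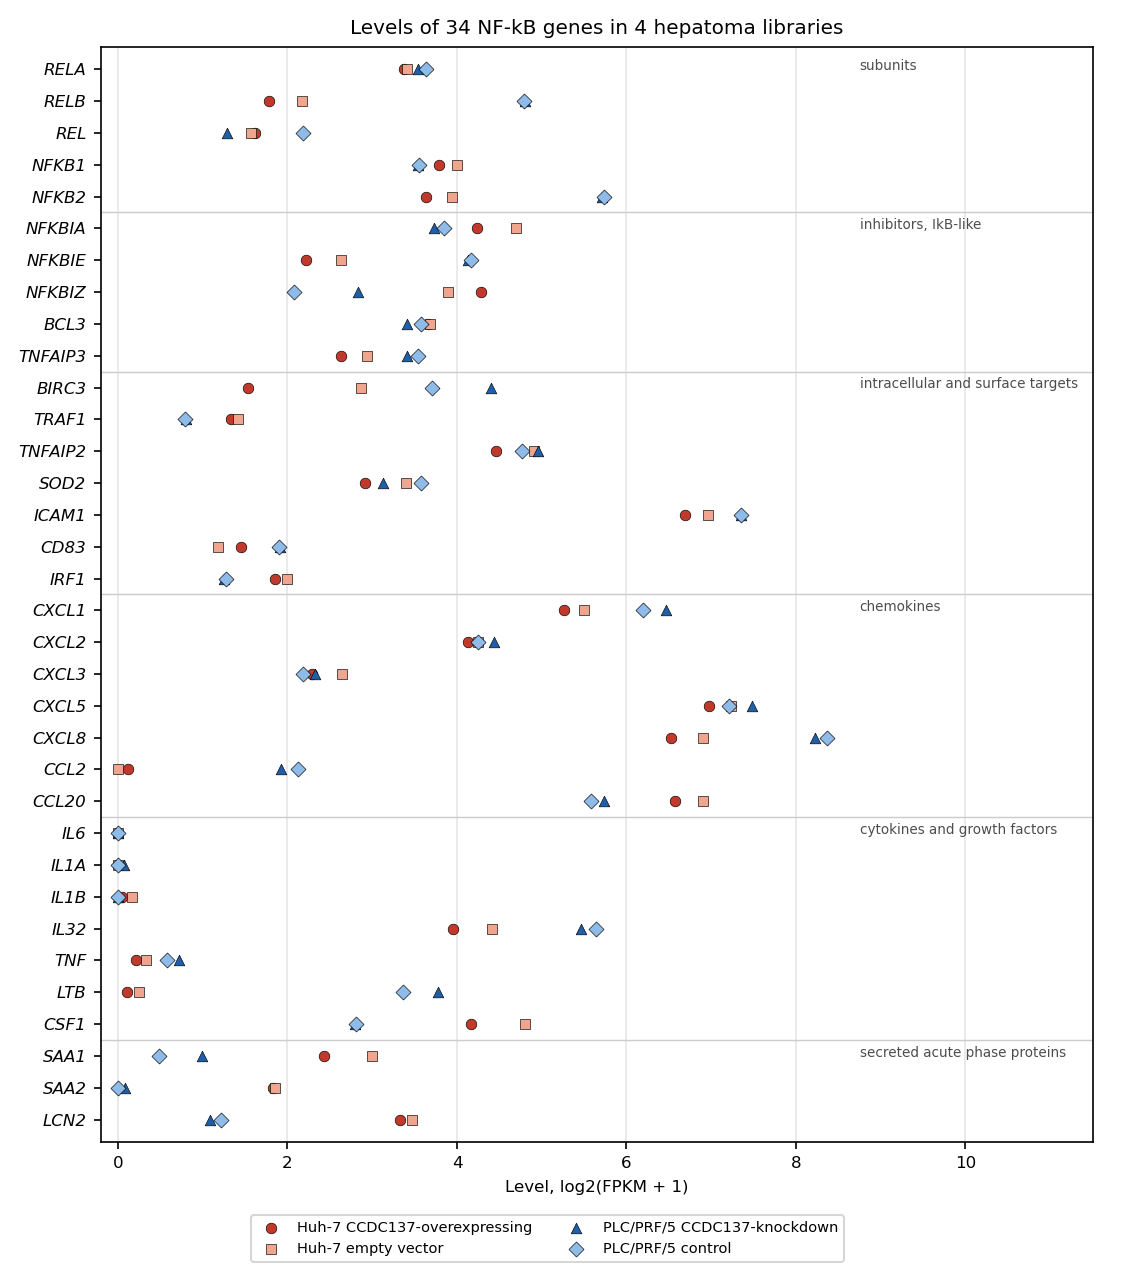
Level of each of the 34 genes as log2(FPKM + 1) (horizontal axis) in the 4 libraries, 1 marker per library, with the genes ordered by role. CXCL8, CXCL5 and ICAM1 lie far to the right in all 4, IL6 lies at 0 in all 4, and for RELB, NFKB2, LTB, CCL2 and the acute phase genes the markers of the 2 lines stand apart.

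On overexpression of CCDC137 in Huh-7 cells, most of the 34 genes were slightly lower than in empty vector cells. A difference is log2((FPKM + 1)/(FPKM + 1)), overexpressing over empty vector, which understates differences of weakly expressed genes, and a gene counts as expressed at 1 FPKM or more in either library. Of 28 expressed genes of the set, 25 were lower and 3 were higher (23 and 5 when the libraries were scaled to equal FPKM sums, where BCL3 and SAA2 turned), while 46.4% of all 12255 expressed genes were lower. The median difference was -0.28, against 0.01 over all expressed genes, whose 10th and 90th percentiles were -0.27 and 0.30. At a difference of 0.32 or more on the log2 scale, 12 of the 28 were lower and 1 was higher (NFKBIZ), against 7.87% of all expressed genes lower and 8.85% higher. At 2-fold or more, 1 of 28 was lower (BIRC3) and 0 were higher, against 1.09% lower and 1.07% higher among all. The shift was therefore made up of many small differences of the same sign, of which the median lay near the 10th percentile of all expressed genes, and of a large one in BIRC3.

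On knockdown in PLC/PRF/5 cells no such shift in the opposite direction was seen. Of 27 expressed genes of the set, 15 were lower and 12 higher in knockdown than in control cells (19 and 11 of 30 with equal FPKM sums, where RELB, ICAM1 and CD83 turned), while 52.2% of all 12300 expressed genes were lower, and the median difference was -0.02, against -0.01 over all expressed genes. At 0.32 or more, 2 were lower (REL and SOD2) and 3 were higher (NFKBIZ, BIRC3 and LTB), against 7.62% of all expressed genes lower and 7.15% higher. At 2-fold or more, 0 of 27 were lower and 0 higher, against 1.1% lower and 1.2% higher among all. Of the 25 genes expressed in both lines, 9 were lower when CCDC137 was overexpressed but higher when it was knocked down, 13 were lower in both, 2 were higher in both (NFKBIZ and CD83), and 1 was higher on overexpression and lower on knockdown (REL). The same counts were not made over all genes expressed in both lines, so no pattern particular to the set is read from them. The difference between the 2 treatments was not tested, since line and direction of treatment cannot be told apart.

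**Figure D2:**
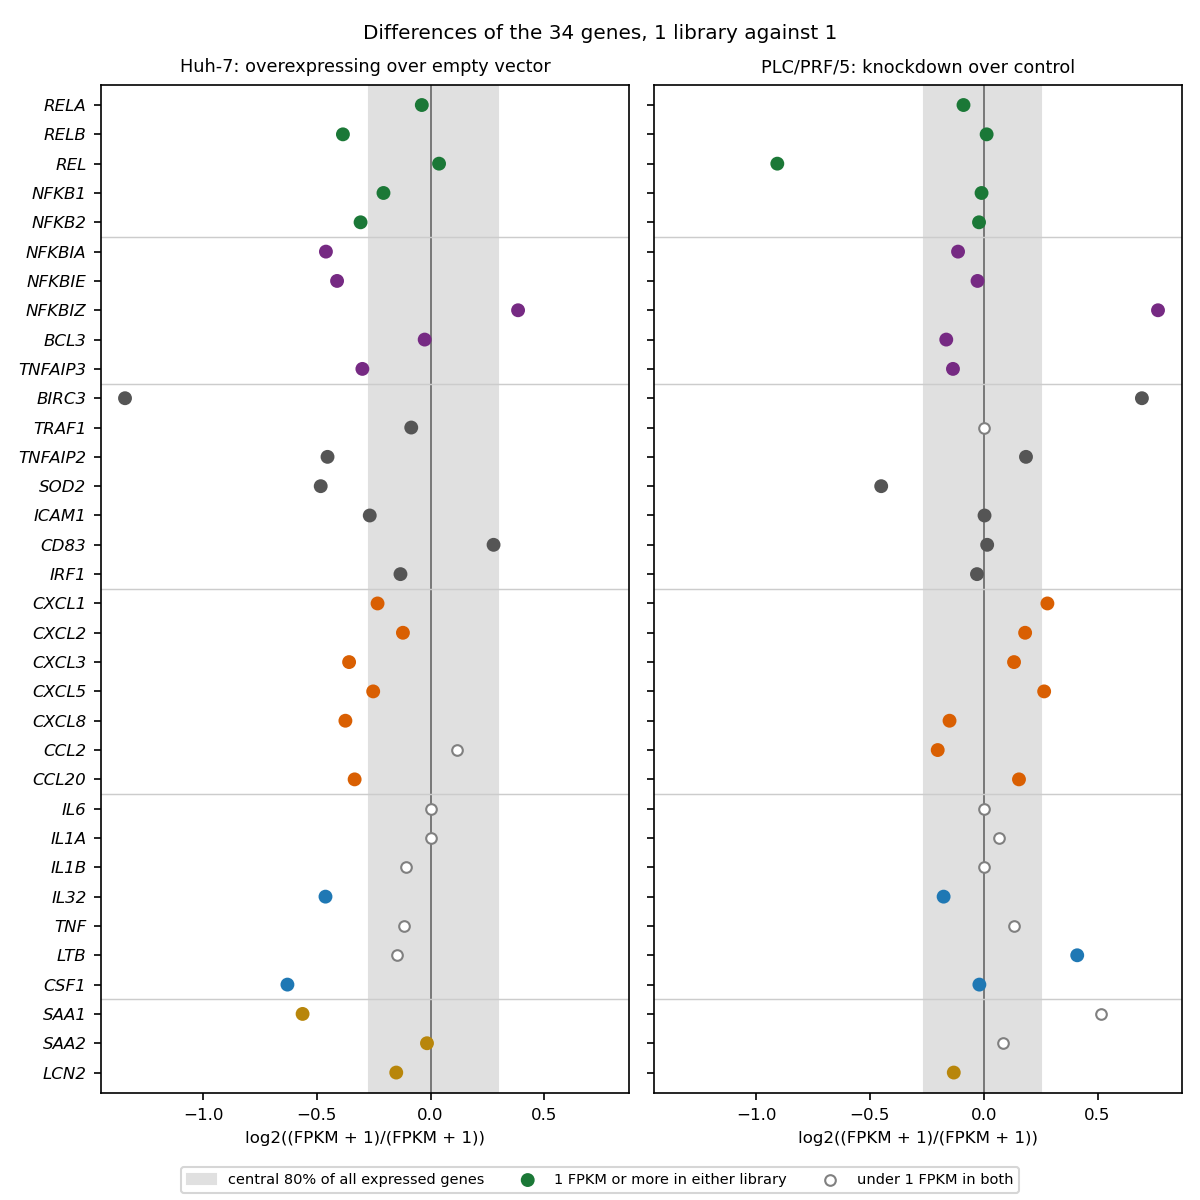
Difference of each gene, log2((FPKM + 1)/(FPKM + 1)), for overexpressing over empty vector Huh-7 cells (left) and knockdown over control PLC/PRF/5 cells (right). Filled points are genes at 1 FPKM or more in either library, coloured by role, open points are genes under it, and the grey band spans the central 80% of all expressed genes. On the left 25 of 28 filled points lie below 0 (23 of 28 with equal FPKM sums, where BCL3 and SAA2 turned) and BIRC3 lies farthest out at -1.34, while on the right the points lie on both sides of 0.

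**Figure D3:**
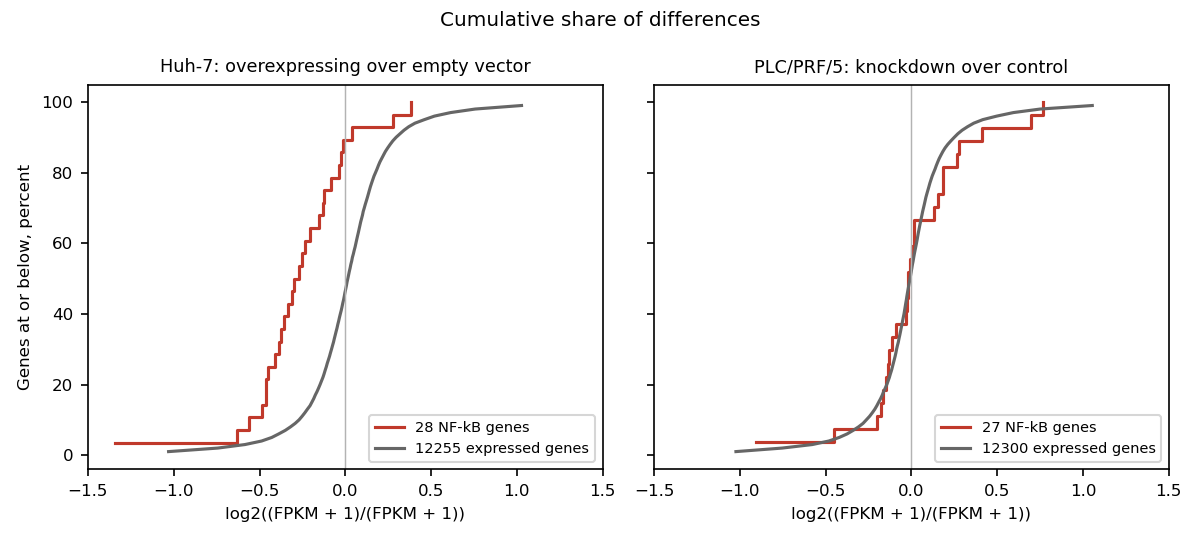
Cumulative share of genes (vertical axis, percent) by log2 difference (horizontal axis) for the expressed NF-kB genes and for all expressed genes, with overexpression on the left and knockdown on the right. On the left the curve of the 28 genes lies to the left of that of the 12255 expressed genes (medians -0.28 and 0.01), and on the right the curves of 27 and 12300 genes cross near 0.

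Among the subunit genes, RELB and NFKB2 were lower on overexpression and REL was lower on knockdown. RELA, the main transactivating subunit, was at 9.38 FPKM in overexpressing and 9.66 FPKM in empty vector Huh-7 cells, and at 10.7 FPKM in knockdown and 11.4 FPKM in control PLC/PRF/5 cells. NFKB1, the precursor of p50, was at 12.8 FPKM in overexpressing and 15.0 FPKM in empty vector cells (difference -0.21), and at 10.7 FPKM in both PLC/PRF/5 libraries. These 2 genes of the canonical dimer were thus at like levels in all 4 libraries. RELB was at 2.44 FPKM in overexpressing and 3.49 FPKM in empty vector cells (difference -0.39), and at 26.9 and 26.6 FPKM in knockdown and control cells. NFKB2 was at 11.4 FPKM in overexpressing and 14.4 FPKM in empty vector cells (difference -0.31), and at 51.3 and 52.1 FPKM in knockdown and control cells. The noncanonical pair was therefore lower on overexpression in Huh-7 cells, at the same level on knockdown, and far higher in PLC/PRF/5 than in Huh-7 cells. REL, the subunit best known from lymphocytes, was at 2.06 and 1.98 FPKM in overexpressing and empty vector Huh-7 cells, and at 1.43 FPKM in knockdown cells, against 3.56 FPKM in control cells (difference -0.91). REL was at a low level in every library, and with a pseudocount of 5 in place of 1 its difference on knockdown was -0.41. Over the group, 4 of 5 subunit genes were lower in each treatment (RELB on knockdown, at 0.01, turned to -0.01 with equal FPKM sums), with a median of -0.21 on overexpression and -0.02 on knockdown. Among all expressed genes, 46.4% were lower on overexpression (median 0.01) and 52.2% on knockdown (median -0.01). On knockdown NFKB1 (-0.01), NFKB2 (-0.02) and RELA (-0.09) hardly differed, so no lowering of the group is read from that count.

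Among the inhibitors, NFKBIA, a target of the pathway that encodes its inhibitor IkB-alpha, was at 17.8 FPKM in overexpressing Huh-7 cells, against 24.9 FPKM in empty vector cells (difference -0.46), and at 12.3 FPKM in knockdown, against 13.4 FPKM in control PLC/PRF/5 cells (-0.11). NFKBIE, encoding IkB-epsilon, was at 3.67 and 5.21 FPKM in overexpressing and empty vector cells (-0.41), and at 16.6 and 16.9 FPKM in knockdown and control cells (-0.03). TNFAIP3 encodes A20, a ubiquitin-editing enzyme that ends signaling, and was at 5.22 FPKM in overexpressing and 6.66 FPKM in empty vector cells (-0.30), and at 9.60 FPKM in knockdown and 10.6 FPKM in control cells (-0.14). These 3 feedback inhibitors were lower in the treated library of both lines, by more in Huh-7 cells. Among all expressed genes, 46.4% were lower on overexpression and 52.2% on knockdown. The IkB-like nuclear cofactors differed from each other. BCL3, a partner of p50 and p52, was at 11.6 and 11.8 FPKM in overexpressing and empty vector cells (-0.03, or 0.01 with equal FPKM sums). In knockdown and control cells BCL3 was at 9.63 and 10.9 FPKM (-0.16), so it was also lower in the treated library of both lines. NFKBIZ, which encodes IkB-zeta, a cofactor needed for induction of secondary targets, was at 18.4 FPKM in overexpressing cells, against 13.9 FPKM in empty vector cells (0.38), and at 6.15 FPKM in knockdown cells, against 3.21 FPKM in control cells (0.77). NFKBIZ was the only gene of the 34 that was higher by 0.32 or more on overexpression (CD83 joined it, at 0.42, with equal FPKM sums). On knockdown the difference of NFKBIZ was 0.44 with a pseudocount of 5, where that of BIRC3 was 0.56. Its exons overlap those of NXPE3 on the same strand in GENCODE 44 (GRCh37), and NXPE3 was at 0.906 and 1.12 FPKM in overexpressing and empty vector cells and at 2.10 and 2.23 FPKM in knockdown and control cells.

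BIRC3 carried the largest difference. It encodes cIAP2, a ubiquitin ligase of the TNF receptor complex that restrains both cell death and NIK, and is located at chromosome 11, 102188215 to 102210134 on the plus strand (GRCh37). BIRC3 was at 1.89 FPKM in overexpressing Huh-7 cells, against 6.33 FPKM in empty vector cells (difference -1.34), and at 20.1 FPKM in knockdown PLC/PRF/5 cells, against 12.01 FPKM in control cells (0.69). With a pseudocount of 5 in place of 1, the difference of BIRC3 on overexpression was -0.72, short of 2-fold. BIRC3 was the gene of the set with the largest opposite differences in the 2 lines. Its neighbour in function BIRC2, which encodes cIAP1, was at 7.99 FPKM in overexpressing and 6.20 FPKM in empty vector cells (0.32), and at 10.01 FPKM in knockdown cells, against 22.3 FPKM in control cells (-1.08), opposite in sign to BIRC3 in each line. BIRC2 begins at 102217942 on the same chromosome and strand, shortly after the end of BIRC3. How fragments that fit both genes were assigned is not given in the sources used here.

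Of the other intracellular and surface targets, SOD2, the mitochondrial superoxide dismutase, was at 6.54 FPKM in overexpressing and 9.53 FPKM in empty vector cells (-0.48), and at 7.71 FPKM in knockdown and 10.9 FPKM in control cells (-0.45). SOD2 (lower) and NFKBIZ (higher) were the genes of the set with a difference of 0.32 or more in the same direction in both treatments. TNFAIP2, induced by TNF, was at 21.0 and 29.1 FPKM in overexpressing and empty vector cells (-0.45), and at 30.0 and 26.3 FPKM in knockdown and control cells (0.19). ICAM1, the ligand of leukocyte integrins, was at 102.2 FPKM in overexpressing and 123.2 FPKM in empty vector cells (-0.27), and at 162.3 and 161.9 FPKM in knockdown and control cells. Thus TNFAIP2 and ICAM1 were lower on overexpression while on knockdown ICAM1 hardly differed. The 3 weakly expressed targets were close to or below 3 FPKM. TRAF1, an adaptor of TNF receptors, was at 1.52 and 1.67 FPKM in overexpressing and empty vector cells and at 0.740 and 0.737 FPKM in knockdown and control cells. IRF1, a transcription factor of the interferon response, was at 2.63 and 2.97 FPKM in overexpressing and empty vector cells and at 1.38 and 1.43 FPKM in knockdown and control cells. CD83, a surface protein of mature dendritic cells, was at 1.74 FPKM in overexpressing and 1.26 FPKM in empty vector cells (0.28), and at 2.78 and 2.74 FPKM in knockdown and control cells. CD83 was thus the only target gene higher on overexpression, at a low level.

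The chemokine genes were lower on overexpression as a group. All 6 that were expressed in Huh-7 cells were lower, with differences between -0.37 and -0.12 and a median of -0.29, and the FPKM of the 7 chemokine genes summed to 368.3 in overexpressing cells, against 454.1 in empty vector cells. On knockdown 5 of 7 were higher, with a median of 0.15 and differences between -0.20 and 0.28, and the sums were 641.7 FPKM in knockdown and 621.0 FPKM in control cells. Among all expressed genes, 46.4% were lower on overexpression and 52.2% on knockdown. The CXC chemokines of this list act on the receptors CXCR1 and CXCR2 of neutrophils. CXCL8 was at 91.2 FPKM in overexpressing and 118.5 FPKM in empty vector Huh-7 cells (-0.37), and at 297.1 and 329.8 FPKM in knockdown and control PLC/PRF/5 cells (-0.15). CXCL5 was at 124.9 FPKM in overexpressing and 149.0 FPKM in empty vector cells (-0.25), and at 177.1 FPKM in knockdown and 147.2 FPKM in control cells (0.27). CXCL1 was at 37.4 FPKM in overexpressing and 44.1 FPKM in empty vector cells (-0.23), and at 87.7 FPKM in knockdown and 72.0 FPKM in control cells (0.28). CXCL5 and CXCL1 were therefore lower in overexpressing and higher in knockdown cells by about the same amount, whereas CXCL8 was lower in both. CXCL2 was at 16.5 and 18.0 FPKM in overexpressing and empty vector cells (-0.12), and at 20.6 and 18.0 FPKM in knockdown and control cells (0.18). CXCL3 was at 3.88 and 5.25 FPKM in overexpressing and empty vector cells (-0.36), and at 4.00 and 3.56 FPKM in knockdown and control cells (0.13).

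These 5 genes lie within 1 cluster on chromosome 4 (GRCh37, from 74606236, where CXCL8 begins, to 74964913, where CXCL2 ends). Its other chemokine genes were not all active. CXCL6, a neighbour of the same kind that lies between CXCL8 and CXCL1, was at 14.6 FPKM in overexpressing and 22.4 FPKM in empty vector cells, and at 2.54 FPKM in knockdown and 1.59 FPKM in control cells. It was thus lower in overexpressing and higher in knockdown cells, like 4 of the 5. The platelet chemokine genes of the cluster were at or near 0, with PF4V1 listed at 0 in all 4 libraries, PF4 at most at 0.350 FPKM and PPBP at most at 0.043 FPKM. CXCL1, CXCL2 and CXCL3 are close paralogs, as are SAA1 and SAA2, and the sources used here do not say how fragments that fit more than 1 of them were assigned.

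The 2 CC chemokines differed between the lines. CCL20, which attracts CCR6-positive lymphocytes, was at 94.3 FPKM in overexpressing and 119.2 FPKM in empty vector Huh-7 cells (-0.33), and at 52.5 and 47.0 FPKM in knockdown and control PLC/PRF/5 cells (0.15). CCL2, the monocyte attractant, was at 0.084 FPKM in overexpressing cells and listed at 0 in empty vector cells, and was at 2.78 and 3.35 FPKM in knockdown and control cells (-0.20). CCL2 was therefore at 1 FPKM or more in PLC/PRF/5 cells only, and CCL20 was among the most abundant mRNAs of Huh-7 cells.

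Among the other cytokines, IL32 and CSF1 were expressed in both lines. IL32, a cytokine without a known mouse counterpart, was at 14.4 FPKM in overexpressing and 20.3 FPKM in empty vector cells (-0.46), and at 43.0 and 48.8 FPKM in knockdown and control cells (-0.18). CSF1, the growth factor of macrophages, was at 17.0 FPKM in overexpressing and 26.8 FPKM in empty vector cells (-0.63), and at 5.93 and 6.03 FPKM in knockdown and control cells (-0.02). CSF1 had the largest difference on overexpression after BIRC3, and hardly differed on knockdown. LTB encodes lymphotoxin beta, the membrane ligand of LTBR, and was at 0.073 and 0.189 FPKM in overexpressing and empty vector cells, and at 12.7 FPKM in knockdown and 9.33 FPKM in control cells (0.41). LTB was thus a gene of PLC/PRF/5 cells, and higher on knockdown. TNF was at 0.158 and 0.255 FPKM in overexpressing and empty vector cells and at 0.641 and 0.499 FPKM in knockdown and control cells. IL1B was at 0.037 and 0.120 FPKM in overexpressing and empty vector cells and listed at 0 in both PLC/PRF/5 libraries. IL1A was at 0.048 FPKM in knockdown cells and listed at 0 in the other 3 libraries. Values this low rest on few fragments and no direction is read from them.

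The acute phase genes SAA1 and SAA2, which encode serum amyloid A, and LCN2, which encodes the iron-scavenging lipocalin 2, were expressed mainly in Huh-7 cells. SAA1 was at 4.39 FPKM in overexpressing and 6.96 FPKM in empty vector cells (-0.56), and at 0.993 and 0.396 FPKM in knockdown and control cells. SAA2 was at 2.57 and 2.61 FPKM in overexpressing and empty vector cells, at 0.061 FPKM in knockdown cells and listed at 0 in control cells. LCN2 was at 9.02 and 10.1 FPKM in overexpressing and empty vector cells (-0.15), and at 1.12 and 1.32 FPKM in knockdown and control cells (-0.13). Over all 17 genes of secreted factors, 11 were expressed in Huh-7 cells and 11 of these 11 were lower on overexpression, with a median of -0.33, although the smallest, SAA2 at -0.02, turned to 0.01 when the libraries were scaled to equal FPKM sums. In PLC/PRF/5 cells 11 were expressed, of which 5 were lower and 6 higher on knockdown. The shares of all expressed genes that were lower were 46.4% on overexpression and 52.2% on knockdown.

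**Figure D4:**
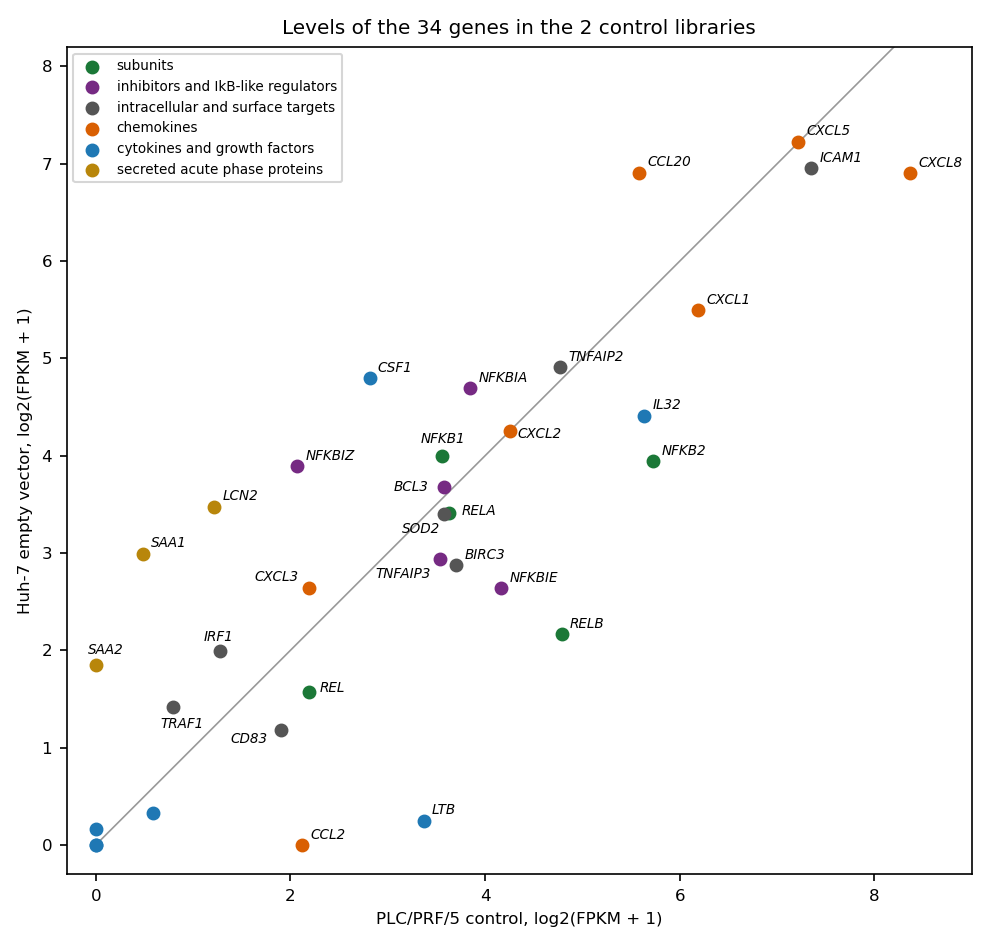
Level of the 34 genes as log2(FPKM + 1) in PLC/PRF/5 control cells (horizontal axis) and Huh-7 empty vector cells (vertical axis), coloured by role, with the line of equal levels. RELB, NFKB2, LTB and CCL2 lie on the side of PLC/PRF/5, and SAA1, SAA2, LCN2, CSF1 and NFKBIZ on the side of Huh-7, while RELA, BCL3, CXCL2 and CXCL5 lie near the line. Unlabelled points near 0 are IL6, IL1A, IL1B and TNF.

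The lines differed in these genes far more than the treatments did. PLC/PRF/5 control cells were set against Huh-7 empty vector cells, a level set across 2 tables that were deposited separately. Of 30 expressed genes, 15 were lower and 15 higher in PLC/PRF/5 control cells, with a median difference of 0.09, against 0.04 over all expressed genes, of which 48.1% were lower. At 2-fold or more, 6 were lower and 7 higher, against 13.6% lower and 14.6% higher among all 13304 expressed genes. The genes higher by 2-fold or more in PLC/PRF/5 control cells were LTB (3.12), RELB (2.62), NFKB2 (1.79), NFKBIE (1.53), CXCL8 (1.47), IL32 (1.23) and CCL2, which was listed at 0 in Huh-7 empty vector cells. Those lower were SAA1 (-2.51), LCN2 (-2.26), CSF1 (-1.99), NFKBIZ (-1.82), CCL20 (-1.32) and SAA2, which was listed at 0 in PLC/PRF/5 control cells. Both subunits of the noncanonical dimer, the ligand LTB and an inhibitor that NF-kB induces were thus on the higher side in PLC/PRF/5 cells, and the 3 acute phase genes on the lower side. NFKBIA was on the other side from NFKBIE, at 13.4 FPKM in PLC/PRF/5 control and 24.9 FPKM in Huh-7 empty vector cells (-0.85).

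The genes upstream of the subunits were examined from lists of receptors, adaptors, kinases and other negative regulators. The kinases were all higher in PLC/PRF/5 control than in Huh-7 empty vector cells, 9 of 9 with a median of 0.60, where 48.1% of all expressed genes were lower. MAP3K14, encoding NIK, was at 5.14 FPKM in PLC/PRF/5 control and 0.943 FPKM in Huh-7 empty vector cells, and MAP3K8, encoding the kinase TPL2, at 20.8 FPKM in PLC/PRF/5 control and 6.86 FPKM in Huh-7 empty vector cells. Of 7 expressed receptors 5 were higher in PLC/PRF/5 control cells, among them CD40, at 8.23 FPKM and listed at 0 in Huh-7 empty vector cells, and the interleukin 1 receptor gene IL1R1, at 21.6 FPKM in PLC/PRF/5 control and 3.31 FPKM in Huh-7 empty vector cells. LTBR, the receptor of LTB, was lower, at 6.09 FPKM in PLC/PRF/5 control and 12.1 FPKM in Huh-7 empty vector cells. A receptor, NIK and both subunits of the noncanonical branch had higher mRNA levels in PLC/PRF/5 control cells, while LTBR was lower. Genes that restrain NIK were higher there as well. TRAF3 was at 6.99 FPKM in PLC/PRF/5 control and 2.45 FPKM in Huh-7 empty vector cells, BIRC2 at 22.3 and 6.20 FPKM, and BIRC3 differed by 0.83. Of 19 expressed adaptors and ubiquitin ligases, 12 were higher and 7 lower in PLC/PRF/5 control cells. Activity of the branch was not measured.

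On overexpression the medians of the upstream lists lay between -0.13 and 0.04, and whether they differed from the 34 genes was not tested. Of all expressed genes 46.4% were lower, and 7.87% were lower and 8.85% higher by 0.32 or more. Of 5 expressed receptors 3 were lower (median -0.13), of 18 adaptors and ubiquitin ligases 12 were lower (median -0.04), of 8 kinases 3 were lower (median 0.03) and of 13 other negative regulators 5 were lower (median 0.04). At 0.32 or more, 0 receptors were lower and 0 higher, 1 adaptor was lower (MYD88) and 1 higher (IRAK4, with BIRC2 just short of the unrounded threshold), 2 kinases were lower and 1 higher, and 2 negative regulators were lower and 1 higher. The largest differences among receptors were in LTBR (-0.19), IL1RAP (0.17), TNFRSF12A (-0.14) and IL1R1 (-0.13). Among adaptors, IRAK4, a kinase of the interleukin 1 receptor complex, was at 3.77 FPKM in overexpressing and 1.21 FPKM in empty vector cells, and the adaptor MYD88 at 17.1 FPKM in overexpressing and 22.3 FPKM in empty vector cells, followed by BIRC2 (0.32) and TICAM1 (-0.30). Among kinases, MAP3K3 was at 2.23 FPKM in overexpressing and 1.21 FPKM in empty vector cells, followed by MAP3K8 (-0.44), IKBKE (-0.39) and MAP3K7, which encodes TAK1 (0.19). The negative regulators with the largest differences were NFKBID (0.44), COMMD1 (-0.35), NFKBIB (-0.34) and ITCH (0.27).

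A second list, of 35 other genes described as NF-kB targets, was also mixed on overexpression. Of 20 expressed genes 12 were lower and 8 higher, with a median of -0.09, and 6 were lower and 6 higher by 0.32 or more. Of all expressed genes 46.4% were lower, and 7.87% were lower and 8.85% higher by 0.32 or more. Differences past 0.32 were thus more frequent in this list, in both directions. CXCL10, a chemokine that interferon also induces, was at 12.9 FPKM in overexpressing and 26.4 FPKM in empty vector cells (-0.97). PLAU, the urokinase gene, was at 5.94 and 12.8 FPKM in overexpressing and empty vector cells (-0.99). On the higher side stood CX3CL1, at 5.69 and 2.32 FPKM in overexpressing and empty vector cells (1.01), and EFNA1, an ephrin ligand, at 18.9 FPKM in overexpressing and 11.1 FPKM in empty vector cells (0.72). So the nearly uniform sign seen in the 34 genes was not seen in this list, and the difference between the lists was not tested.

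On knockdown the largest differences upstream were in adaptors. Of 19 expressed adaptors and ubiquitin ligases 13 were lower (median -0.03), 3 of them by 0.32 or more. Of all expressed genes 52.2% were lower on knockdown, and 7.62% were lower by 0.32 or more. RNF31, a subunit of the linear ubiquitin chain assembly complex, was at 2.03 FPKM in knockdown and 6.76 FPKM in control cells (-1.35), and TRAF3, which holds NIK in check, at 3.00 FPKM in knockdown and 6.99 FPKM in control cells. BIRC2, given above, was the other, and RBCK1, another subunit of that complex, followed (-0.27). RNF31 shares exons on the same strand with AL136295, which was at 7.51 FPKM in knockdown and 2.70 FPKM in control cells, the opposite direction. TRAF3 and BIRC2 are known to act with TRAF2 in the degradation of the NIK protein. MAP3K14, the gene of NIK, was at 4.52 FPKM in knockdown and 5.14 FPKM in control cells. Of 7 receptors 3 were lower and 4 higher (median 0.00), with the largest differences in TNFRSF1A (0.26), IL1RAP (0.18), TNFRSF12A (-0.11) and TNFRSF11A (-0.06). Of 9 kinases 3 were lower and 6 higher (median 0.05), with differences between -0.15 (MAP3K14) and 0.14 (IKBKE), IKBKB at 0.11 and MAP3K8 at 0.09. Of 13 negative regulators 8 were lower (median -0.05), the largest differences being in NKIRAS1, at 4.35 FPKM in knockdown and 2.34 FPKM in control cells, its paralog NKIRAS2, at 8.70 FPKM in knockdown and 13.1 FPKM in control cells, NFKBID (0.46) and NFKBIB (-0.36).

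Of the 26 expressed genes of the other target list, 14 were lower and 12 higher on knockdown (median -0.02), where 52.2% of all expressed genes were lower. BCL2L1, encoding the survival protein BCL-XL, was at 93.3 FPKM in knockdown and 23.3 FPKM in control cells (1.95), which was larger than any difference among the 34 genes on knockdown. CXCL16 was at 23.9 and 35.5 FPKM in knockdown and control cells (-0.55), CFLAR, the inhibitor of caspase 8, at 2.83 FPKM in knockdown and 4.60 FPKM in control cells (-0.55) and PLAU at 4.51 FPKM in knockdown and 2.81 FPKM in control cells (0.53). PLAU thus differed in opposite directions in the 2 lines, like BIRC3.

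**Figure D5:**
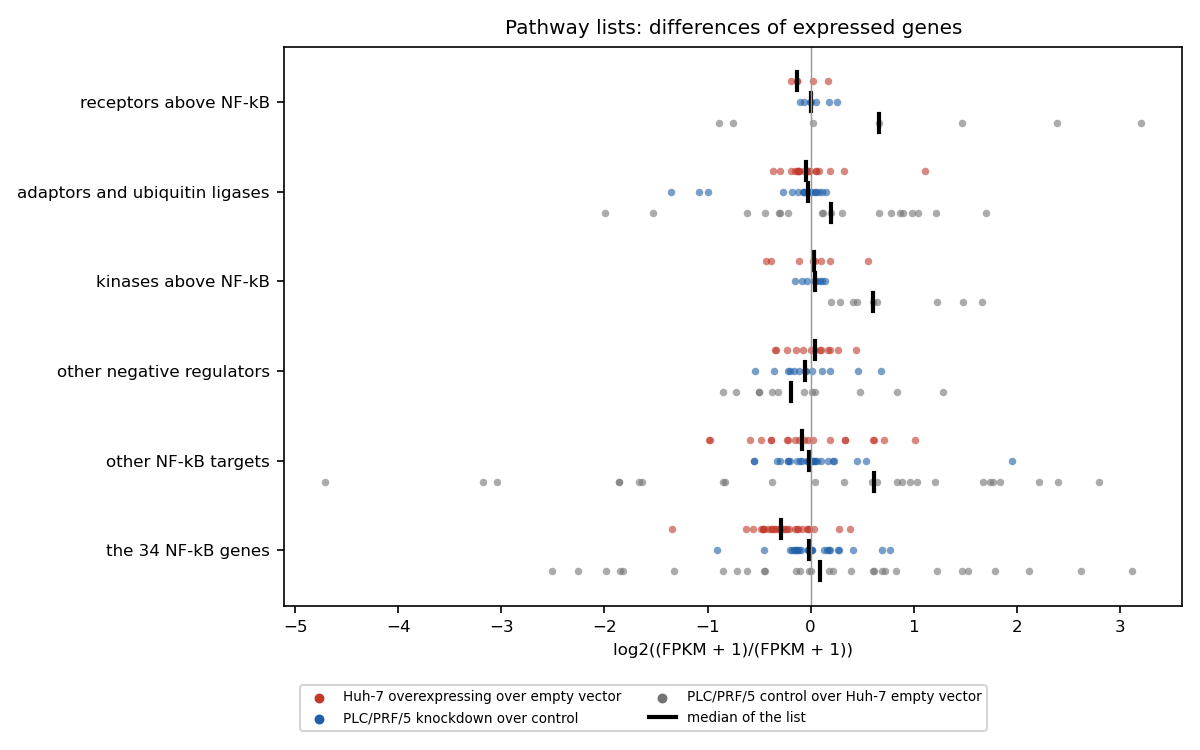
Differences, log2((FPKM + 1)/(FPKM + 1)), of the expressed genes of each pathway list and of the 34 NF-kB genes, 1 point per gene, with black bars at the medians. Red stands for overexpressing over empty vector Huh-7 cells, blue for knockdown over control PLC/PRF/5 cells and grey for PLC/PRF/5 control over Huh-7 empty vector cells. The red median of the 34 genes lies at -0.28, those of the other lists between -0.13 and 0.04, and the grey points spread the widest in every list.

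Of 14 genes for the receptors through which the secreted factors act, 7 were expressed in each treatment comparison. They were lower in 4 and higher in 3 on overexpression (median -0.03), with LTBR, IL1RAP and IL1R1 as above and the interleukin 6 signal transducer IL6ST at 19.6 and 18.4 FPKM in overexpressing and empty vector cells (0.08). On knockdown 2 were lower and 5 higher (median 0.00). The shares lower among all expressed genes were 46.4% on overexpression and 52.2% on knockdown. IL1R2, the decoy receptor of interleukin 1, was at 11.3 FPKM in knockdown and 7.01 FPKM in control cells (0.62), followed by IL6R (-0.37), TNFRSF1A (0.26) and IL1RAP (0.18). CXCR1 and CXCR2, the receptors of the CXC chemokines of the set, were listed at 0 in all 4 libraries. So was CCR2, the receptor of CCL2, and CSF1R, the receptor of CSF1, reached at most 0.015 FPKM. CCR6, the receptor of CCL20, was the exception, at 6.56 and 6.74 FPKM in overexpressing and empty vector Huh-7 cells and at 0.468 and 0.771 FPKM in knockdown and control PLC/PRF/5 cells, so that CCR6 and its ligand CCL20 were both higher in Huh-7 cells.

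Markers of other cell types were read beside these results, since leukocytes, endothelium and stellate cells also express NF-kB targets. Of 12 leukocyte markers, CD14, CD68 and LYZ were expressed in Huh-7 cells, and PTPRC, MS4A1 and NKG7 were listed at 0 in all 4 libraries, as was the erythroid gene HBB, which the same list holds. The list summed to 170.0 FPKM in overexpressing and 209.7 FPKM in empty vector cells and to 250.2 FPKM in knockdown and 167.0 FPKM in control cells, nearly all of it LYZ, at 160.5 and 196.5 FPKM in overexpressing and empty vector cells and 206.3 and 128.7 FPKM in knockdown and control cells. CD68 was at 4.60 and 8.45 FPKM in overexpressing and empty vector cells and 43.8 and 38.2 FPKM in knockdown and control cells, and CD14 at 4.81 and 4.59 FPKM in overexpressing and empty vector cells. Of 9 fibroblast and stellate markers only LUM was expressed, at 22.8 and 28.7 FPKM in overexpressing and empty vector Huh-7 cells, and of 6 endothelial markers only PECAM1, at 2.66 and 2.28 FPKM. CD68 (-0.75), LYZ (-0.29) and LUM (-0.32) thus moved in the same direction as most of the 34 genes on overexpression. CD14 and PECAM1 (0.16) were higher, and the part of these markers in the result was not tested. Of 12 hepatocyte markers 4 were lower and 8 higher on overexpression, the largest differences being in HNF4A (0.48), TF (0.38), AFP (0.34) and FGA (-0.22). On knockdown 6 of 11 were lower, with APOA2 (-1.46), AFP (0.61), HNF4A (0.32) and FGB (-0.32) the largest. At 0.32 or more, 3 hepatocyte markers were higher and 0 lower on overexpression, against 8.85% higher and 7.87% lower among all expressed genes. On knockdown 1 was higher and 1 lower, with HNF4A and FGB just short of the unrounded threshold, against 7.15% higher and 7.62% lower. Hepatocyte marker mRNAs were thus mixed in sign in both treatments, but past 0.32 on overexpression they were on the higher side only.

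The differences were also set beside the kB letters in the promoter window. Of the genes with the consensus, 17 were expressed on overexpression, 14 of them lower and 3 higher with a median of -0.23, and of those without it 6 of 6 were lower with a median of -0.32. On knockdown 9 of 18 genes with the consensus were lower (median 0.00), and 3 of 5 without it (median -0.09). Among all expressed genes, 46.4% were lower on overexpression and 52.2% on knockdown. The 6 genes without the consensus all held the looser pattern of 3 G, 5 bases of any kind and 2 C. The split is thus by the consensus only, and no gene without the looser pattern was compared. The 4 chemokine genes whose stretches are printed above, with the same 10 letters at nearly the same distance from the start, were spread in level between 3.88 FPKM (CXCL3) and 124.9 FPKM (CXCL5) in overexpressing Huh-7 cells. IL6, with its match 73 bases before the start, was listed at 0 in every library.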

How the data were processed

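Polyadenylated RNA was captured on oligo(dT) beads, second strands carried dUTP, and libraries were read in paired ends on an Illumina NovaSeq. Tools named in the submitters' processing notes were cutadapt, HISAT2 2.0.4 and StringTie 1.3.4d. What build, annotation and strand setting were used for quantification is not given in the sources used here. FPKM values per gene and library were computed and deposited by the authors, in 1 table per line, and a listed 0.0001 was taken as 0. The depth of the libraries is unknown, so no interval could be set. The tables' own folds, p-values, q-values and labels of regulation or significance were not used.

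The set and all other lists were chosen with earlier results of these data known. All 34 genes were accounted for, and from each other list the 4 genes with the largest absolute difference in each treatment were named. Genes named beyond this in the comparison of lines, the chemokine cluster and the chemokine receptors were chosen after their values were seen. Differences were log2((FPKM + 1)/(FPKM + 1)), with a filter at 1 FPKM in either library, computed over all genes in Python 3.11.15 with numpy 2.4.6 and pandas 2.3.3, and figures were drawn with matplotlib 3.10.9. The calculation was tested on simulated data. Positions and exon overlaps came from GENCODE release 44 on GRCh37, where 33 of 34 genes were found by ID (SOD2 was not), and promoter sequences from RefSeq (GRCh38.p14). The 2 builds were not mixed. The kB consensus and the looser pattern (3 G, 5 of any base, 2 C) were searched on both strands with overlaps allowed. No reference for the amino acid sequences was used.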

Additional observations from a re-analysis of the deposited data

How the results depend on the processing

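No paired analysis was possible because each group had 1 library. Other pseudocounts (0.1 and 5), no filter or a filter at 5 FPKM, scaling to equal FPKM sums, centring on the median of expressed genes, leaving out close paralogs and leaving out genes with a same-strand overlap were tried. The median difference on overexpression lay between -0.32 and -0.21, and the genes lower numbered 23 of 28 with equal FPKM sums (40.6% of all genes lower) and 21 of 22 with a filter at 5 FPKM (50.6% of all genes lower). With equal sums BCL3 (0.01) and SAA2 (0.01) were no longer lower on overexpression, and RELB (-0.01), ICAM1 (-0.02) and CD83 (-0.00) were no longer higher on knockdown. The genes higher by 0.32 or more on overexpression numbered 2 with a pseudocount of 0.1 or with equal sums, and 0 with a pseudocount of 5 or without overlapping genes, where NFKBIZ drops out. Those lower by 0.32 or more on knockdown numbered 1 with a filter at 5 FPKM or without overlapping genes. The median between the lines was 0.18 with equal sums, 0.22 without paralogs and 0.18 without overlapping genes. Of 636 gene values under alternatives, 37 moved and 0 of those past 0.32 changed sign, most of them for weakly expressed genes under a pseudocount of 5. With 1 library per group and unknown depth, differences of this size between any 2 libraries cannot be told from variation between cultures.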

Other observations

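The KEGG terms in the deposited annotation were counted on overexpression, with the 14 genes of the set that the NF-kappa B signaling term holds and the 19 that the TNF signaling term holds included at first. Of 93 genes annotated to NF-kappa B signaling, 54 were expressed, 33 lower and 21 higher, with a median of -0.05. Of all expressed genes 46.4% were lower on overexpression, and 7.87% were lower and 8.85% higher by 0.32 or more. Once the genes of the set and of the fixed lists were left out, 10 of 18 were lower (median -0.02). Of 104 genes of TNF signaling, 75 were expressed and 46 lower, 14 of them by 0.32 or more, against 2 higher by that much. Without the genes of the set and lists, 22 of 41 were lower (median -0.02), 6 of them by 0.32 or more, against 0 higher by that much. These genes were named after their values were seen: CREB3L2, a transcription factor of the CREB3 family, was at 7.29 FPKM in overexpressing and 28.0 FPKM in empty vector Huh-7 cells, and SOCS3, the feedback inhibitor of cytokine signaling through STAT3, at 12.1 and 15.0 FPKM. CREB3L3, a liver-enriched member of that family, was at 9.70 FPKM in knockdown and 3.07 FPKM in control PLC/PRF/5 cells. On knockdown 33 of 61 expressed genes of the NF-kappa B term were lower, near the 52.2% lower among all expressed genes. For TNF signaling, 48 of 77 expressed genes were lower on knockdown, with a median of -0.04. Without the genes of the set and lists, 27 of 41 were lower on knockdown (median -0.08).

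The genes that follow were also named after their values were seen. CXCL12, a chemokine outside the chromosome 4 cluster, was listed at 0 in both Huh-7 libraries and was at 8.37 and 7.91 FPKM in knockdown and control PLC/PRF/5 cells. CXCL10 went the other way, at 0.048 FPKM in PLC/PRF/5 control cells and 26.4 FPKM in Huh-7 empty vector cells. RIPK2, a kinase of the NOD receptors, was at 30.3 FPKM in PLC/PRF/5 control and 3.49 FPKM in Huh-7 empty vector cells.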
